A study of Homo sapiens with 6 samples.

Results

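Antisense RNAs are long non-coding RNAs transcribed from the DNA strand opposite to another gene, and 199 of them were expressed in the libraries described here. They were taken from 58735 genes in the expression table, of which 5583 carry the annotation class antisense. A member had that class and a mean of at least 2 FPKM over all 6 libraries, where FPKM is the number of sequenced fragments scaled by gene length and by library size. Another 3 antisense genes above that level were left out by name as hosts of small nucleolar RNAs. The members were thus chosen by their mean FPKM over both groups, which is not a finding. In 45 members the mean of 1 group was under 2 FPKM (in the controls for 19, with HYOU1 shRNA for 26), so that the other group carried them over the threshold. Just inside it lay LINC01311, MCM3AP-AS1 and DLGAP1-AS2 at 2.03, 2.01 and 2.002 FPKM, and just outside PXN-AS1, DGUOK-AS1 and AC016065.1 at 1.99, 1.99 and 1.99 FPKM.

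Antisense genes can lie inside a coding gene, share its start region or meet its end. Many begin beside the promoter of a coding gene that is read in the other direction, since open promoters are often transcribed both ways. Some antisense RNAs are known to act on the gene they overlap, some act elsewhere in the cell, and for many no function is known. Many such RNAs are short-lived and are degraded in the nucleus by the exosome, while others are spliced, polyadenylated and exported like messenger RNA.

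The study compared 3 libraries of Hep3B cells carrying a control short hairpin RNA (shRNA) with 3 libraries carrying an shRNA against HYOU1. The protein HYOU1 is a chaperone of the endoplasmic reticulum, and Hep3B is a line from a human hepatocellular carcinoma. All 6 libraries were made from polyadenylated RNA, and no time point, vector or hairpin sequence is named in the labels. Nor do they state whether the numbers 1 to 3 mark separate cultures or separate hairpins. The p-values below therefore measure the spread among these libraries, some or all of which may be technical. The protocol names no step that preserves strand, and whether fragments were counted by strand was not given in the sources used here. Where exons of opposite genes overlap, fragments of the pair cannot be told apart with certainty.

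Each library held 16893091 to 18233240 fragments, and 3 fragments of a gene 1 kb long were worth 0.160 to 0.176 FPKM. HYOU1 itself was at 37.6, 58.2 and 59.5 FPKM in controls 1, 2 and 3 and 2.35, 2.32 and 2.37 FPKM in HYOU1 shRNA libraries 1, 2 and 3, 20.8-fold lower (log2 fold change -4.38 ± 0.20 SE, limma, adjusted p = 0.00119). The only antisense gene that overlaps HYOU1, AP003392.3, was listed at 0. Of 15 hepatocyte markers none reached a mean of 1 FPKM over the 6 libraries, the highest being FGB at 1.21 to 1.42 FPKM in the controls and 0.103 to 0.241 FPKM with HYOU1 shRNA, and ALB, TTR, APOB and APOA2 were listed at 0 in all libraries. The summed level of the 15 was 3.12 to 3.47 FPKM in the controls and 1.18 to 1.49 FPKM with HYOU1 shRNA, so the label of a liver line is not borne out by these markers. The 5 biliary epithelium markers summed to 52.3 to 58.6 FPKM in the controls and 63.6 to 68.0 FPKM with HYOU1 shRNA. For 7 fibroblast and stellate markers the sums were 10.4 to 12.4 and 10.5 to 11.1 FPKM. The 5 endothelial and 6 immune markers reached sums of at most 0.654 and 1.83 FPKM in any library. What cells these are was not tested. Control replicate 1 stood apart, as described with the results it touches. In bulk RNA a lower level can mean fewer cells with a transcript or less of it per cell, and these cannot be told apart.

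The antisense RNAs were mostly weakly expressed. Their median level was 3.32 FPKM, and 149 lay between 2 and 5 FPKM, 36 between 5 and 10 and 14 at 10 or above. The median exon length was 1004 bases, which gave a median of 66.5 fragments per library. In 81 members at least 1 library had fewer than 30 fragments. LINC00659 was listed at 0 in 1 library, control replicate 1. A name ending in AS and a number (after the gene opposite) was carried by 60 members, and 121 had only the name of a genomic clone.

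On the other strand, 154 members overlapped the span of a protein-coding gene, and 45 overlapped none. In 25 of the 154 several coding genes were overlapped, and the one with the longest shared stretch was used. Some of the members shared a coding gene, so that there were 151 different coding genes. The antisense RNA lay inside the coding gene in 61 cases and met it head to head, at the starts of both, in 48. It met it tail to tail, at the ends of both, in 35, and spanned the whole coding gene in 10. Exon bases were shared with a gene on the other strand in 110 members, with a median of 17.0% of the exon length, and over 50% was shared in 8. With a gene on the same strand, 15 members shared exon bases. Of the 154 antisense RNAs, 101 had a lower mean FPKM than the coding gene and 53 a higher one.

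Promoter sequence is shown for 5 members whose results are given below, from RefSeq windows of 300 bases on GRCh38.p14. Such a window reaches from 250 bases before a start to 50 bases after it, and 57 of the 199 members matched one by symbol. In 27 of the 57, the window shared bases with that of a coding gene read in the other direction. The RefSeq starts of NRAV and DYNLL1 were 167 bases apart and their windows shared 266 bases. Those of WAC-AS1 and WAC were 425 bases apart and shared 76. The RefSeq start of WAC-AS1, 28532354, lies outside the GENCODE span of WAC, which begins at 28532493. Arrangements, exon overlaps and expression levels in this report rest on GENCODE genes, whose starts can differ from those of RefSeq. Exons of the opposite coding genes are left out of the stretches, which run 5′ to 3′ on the antisense gene's strand. Capitals mark, on either strand, the CCAAT box, the TATA box (TATAAA), the GC box (GGGCGG), the site bound by AP-1 (TGANTCA) and the cyclic AMP response element (TGACGTCA). The stretches are chr10:28532305-28532492 (minus), chr12:120495897-120496055 (minus), chr20:49278427-49278691 (plus), chr1:155561792-155562091 (plus) and chr1:210233836-210234135 (minus).
WAC-AS1: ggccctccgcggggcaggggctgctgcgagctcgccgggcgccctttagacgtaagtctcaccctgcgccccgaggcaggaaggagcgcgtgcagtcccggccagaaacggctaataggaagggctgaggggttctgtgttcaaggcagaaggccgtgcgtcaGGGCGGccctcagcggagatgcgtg
NRAV: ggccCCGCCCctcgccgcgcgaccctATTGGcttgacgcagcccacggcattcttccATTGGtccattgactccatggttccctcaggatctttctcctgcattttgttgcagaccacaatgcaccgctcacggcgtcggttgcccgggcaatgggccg
ZFAS1: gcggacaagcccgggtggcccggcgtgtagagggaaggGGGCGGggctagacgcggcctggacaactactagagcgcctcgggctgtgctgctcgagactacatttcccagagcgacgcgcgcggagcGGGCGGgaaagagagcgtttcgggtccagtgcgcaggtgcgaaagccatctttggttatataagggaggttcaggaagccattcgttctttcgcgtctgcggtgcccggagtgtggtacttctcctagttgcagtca
ASH1L-AS1: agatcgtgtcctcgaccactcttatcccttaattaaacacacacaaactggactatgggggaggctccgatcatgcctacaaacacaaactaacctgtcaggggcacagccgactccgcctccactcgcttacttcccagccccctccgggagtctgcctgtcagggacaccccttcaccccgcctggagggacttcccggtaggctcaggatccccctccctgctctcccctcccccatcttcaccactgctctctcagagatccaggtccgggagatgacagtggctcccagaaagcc
SERTAD4-AS1: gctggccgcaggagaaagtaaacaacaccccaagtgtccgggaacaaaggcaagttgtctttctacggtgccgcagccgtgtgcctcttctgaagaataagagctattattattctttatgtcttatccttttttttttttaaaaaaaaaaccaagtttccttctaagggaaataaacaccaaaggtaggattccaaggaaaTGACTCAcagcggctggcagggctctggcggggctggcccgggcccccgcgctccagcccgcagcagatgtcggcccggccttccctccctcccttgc
NRAV held 2 CCAAT and 2 GGGCGG matches in its whole window, ZFAS1 2 GGGCGG and WAC-AS1 1 GGGCGG. SERTAD4-AS1 held 1 TGANTCA match, and ASH1L-AS1 held no match to any of the 5 patterns. Among all 34943 RefSeq windows CCAAT was found in 34.65%, TATAAA in 11.57%, GGGCGG in 44.87%, TGANTCA in 7.724% and TGACGTCA in 1.837%. These matches describe letters only.

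The most abundant member was AC099850.3, inside the cell-cycle gene PRR11, at 58.6, 40.1 and 42.9 FPKM in controls 1, 2 and 3 and 48.4, 36.6 and 40.4 FPKM in HYOU1 shRNA libraries 1, 2 and 3. Control replicate 1 was the highest library and the groups overlapped. Its log2 fold change was -0.16 ± 0.19 SE (limma, adjusted p = 0.575). Next came ZFAS1, a host of small nucleolar RNAs, which rose and is described below. FGD5-AS1, a widely expressed non-coding RNA, was at 25.5 ± 5.93 and 18.6 ± 0.513 FPKM (SD, n = 3 each) and did not pass (adjusted p = 0.151). The gene FGD5 opposite to it had at most 0.0198 FPKM in any library. ARRDC1-AS1 stood at 20.5 ± 7.32 and 18.96 ± 1.33 FPKM (SD, n = 3 each) (adjusted p = 0.927). AC006329.1, which overlaps no coding gene, rose, and AL355574.1, also without one, was at 14.9 ± 3.25 and 21.3 ± 3.13 FPKM (SD, n = 3 each) (adjusted p = 0.134). Of these 6 most abundant antisense RNAs, ZFAS1 and AC006329.1 changed and the other 4 did not pass.

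With HYOU1 shRNA, 24 of the 199 antisense RNAs changed, 7 higher and 17 lower (limma on log2(FPKM + 0.1), Benjamini-Hochberg adjusted p under 0.05 over 12448 genes). That is 12.1% of the members, against 12.3% of all genes tested. Among all genes 6.6% rose and 5.66% fell, and among the 10644 coding genes tested 12.9% changed (7.08% rose, 5.77% fell). The median log2 fold change of the members was 0.00, with quartiles of -0.46 and 0.38, beside a median of 0.04 and quartiles of -0.29 and 0.37 for all genes. The members' median standard error was 0.26 against 0.20 for all genes. In 73 members no value of a group lay within the range of the other (31 higher, 42 lower with HYOU1 shRNA). That is 36.7% of the members (15.6% higher, 21.1% lower), against 44.4% of all genes (23.8% higher, 20.6% lower), and all 24 that changed were among the 73. Of the 24, 10 had 1 group under 2 FPKM, 9 that fell and 1 that rose, so the choice of members bears on them.

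**Figure D1:**
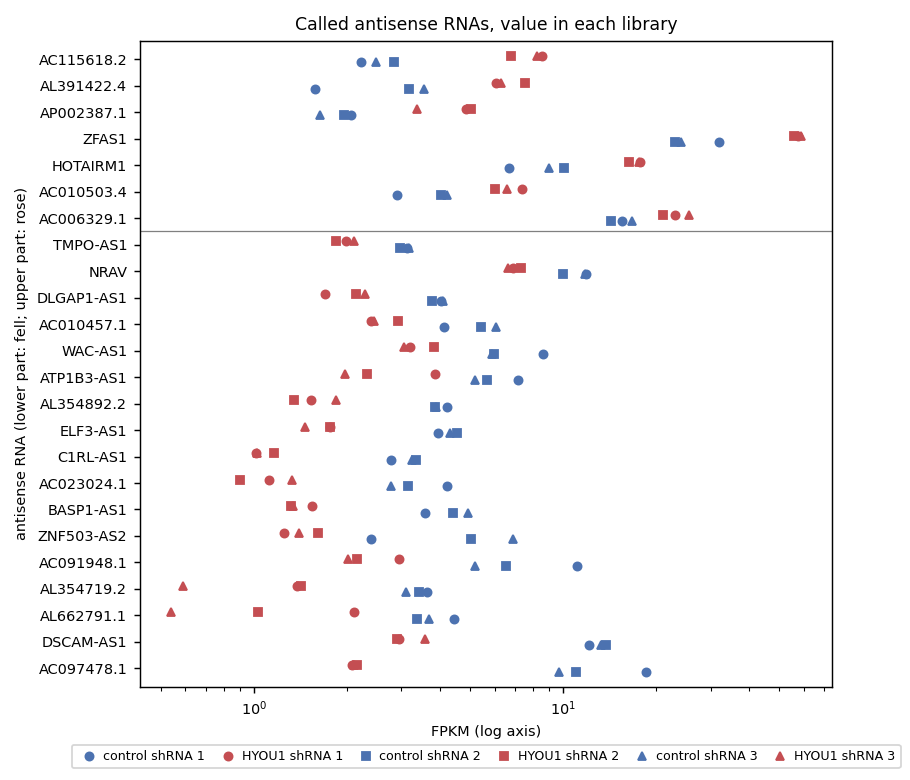
FPKM (log axis) in each of the 6 libraries for the 24 antisense RNAs that changed, blue for control shRNA and red for HYOU1 shRNA, with the marker shape giving the replicate number. In each row the 3 red points lie apart from the 3 blue ones, to the left for the 17 that fell and to the right for the 7 that rose.

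Control replicate 1 differed from the other controls in many of these RNAs. In 52 members it lay more than 2-fold from the mean of control replicates 2 and 3, lower in 45 and higher in 7, whereas control replicate 3 lay that far from control replicate 2 in 6. The median deviation was -0.39 on the log2 scale, and it followed the GC content of the transcript, with a Spearman rho of -0.60 over the 199 RNAs, which share these 3 libraries. Without that library 81 members changed (29 rose, 52 fell), while 44.3% of all genes did (24.6% rose, 19.7% fell). After a correction for GC content 76 did (25 rose, 51 fell), against 40.6% of all genes (20.4% rose, 20.2% fell). The median log2 fold change of the members was then -0.16 and -0.09, with 0.02 and 0.00 for all genes. Of the 24 RNAs, 23 remained called in each of these fits.

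**Figure D2:**
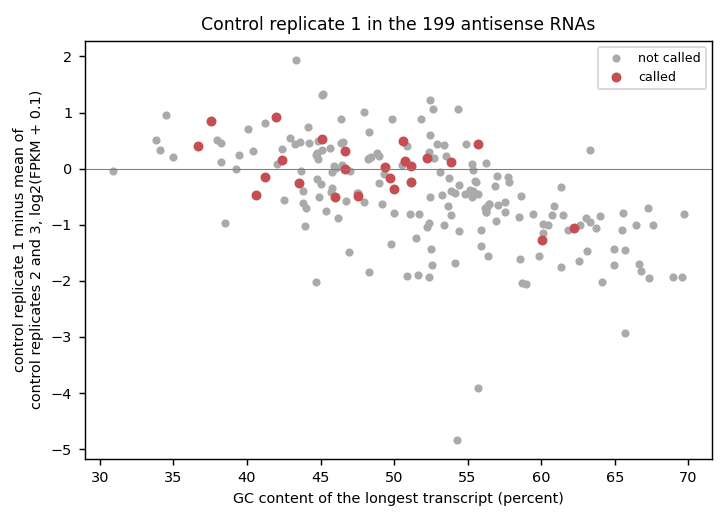
Deviation of control replicate 1 from the mean of control replicates 2 and 3 (log2(FPKM + 0.1)) against the GC content of the longest transcript in percent, 1 point per antisense RNA, red for the 24 that changed. Points fall below 0 at high GC content, with a median deviation of -0.39.

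How many of the 24 stayed called differed with the library left out. DSCAM-AS1 stayed past the threshold whichever library was left out (limma, adjusted p at most 0.0353). AC097478.1, C1RL-AS1 and AC115618.2 were lost only without HYOU1 shRNA replicate 3 (limma, adjusted p = 0.0522, 0.0550 and 0.0533). By contrast, AC006329.1, NRAV, ATP1B3-AS1, AC010457.1, AL354719.2, TMPO-AS1 and ZNF503-AS2 stayed called only without control replicate 1 (limma, adjusted p elsewhere from 0.0563 to 0.168). Of the 17 RNAs that fell, 5, 3 and 1 stayed called without HYOU1 shRNA replicates 1, 2 and 3, where the adjusted p of the 17 reached 0.156, 0.164 and 0.155. Without control replicates 1, 2 and 3, 16, 6 and 10 stayed, with adjusted p of up to 0.0732, 0.115 and 0.0856. Of the 7 that rose, 1 and 1 stayed without HYOU1 shRNA replicates 1 and 2, and 7, 3 and 6 without control replicates 1, 2 and 3. Without HYOU1 shRNA replicate 3 none of the 7 passed in limma (adjusted p from 0.0533 to 0.168). In that fit 43 of the 199 members had an unadjusted p under 0.05 and 1 was called. With voom on the recovered fragments of all 6 libraries, 21 of the 24 were called.

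The RNA with the deepest fall of all members was AC097478.1, a gene with a clone name. It was at 18.6, 10.97 and 9.67 FPKM in controls 1, 2 and 3 and 2.07, 2.16 and 2.11 FPKM in HYOU1 shRNA libraries 1, 2 and 3. All 3 HYOU1 shRNA libraries lay close together and far below the controls, of which replicate 1 was the highest. Its log2 fold change was -2.51 ± 0.25 SE (limma, adjusted p = 0.00478).

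WAC-AS1, ATP1B3-AS1, AC023024.1 and ZNF503-AS2 fell together with the coding gene opposite to them. WAC-AS1 (ENSG00000254635, chromosome 10, 28522652 to 28532743, minus strand) starts against WAC, which encodes an adaptor protein of histone ubiquitination, and shares 251 of 2943 exon bases with it. Both the overlap and the shared bases are those of GENCODE, and the RefSeq start given above lies outside WAC. WAC-AS1 was at 8.64, 5.98 and 5.89 FPKM in controls 1, 2 and 3 and 3.21, 3.83 and 3.05 FPKM in HYOU1 shRNA libraries 1, 2 and 3, and WAC at 18.1, 13.9 and 13.2 FPKM in the controls and 7.31, 7.55 and 7.11 FPKM with HYOU1 shRNA. In both genes control replicate 1 was the highest library, and both groups were fully apart. WAC-AS1 fell by 0.99 ± 0.19 SE and WAC by 1.02 ± 0.15 SE (limma, adjusted p = 0.0269 and 0.0127). The difference between these changes was 0.03 ± 0.22 SE (limma, adjusted p = 0.961).

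ATP1B3-AS1 (ENSG00000244124, chromosome 3, 141918252 to 141919021, minus strand) lies in an intron of ATP1B3, which encodes a beta subunit of the sodium pump, and shares no exon base with it. It had 13 to 46 fragments per library and was at 7.17, 5.68 and 5.19 FPKM in controls 1, 2 and 3 and 3.86, 2.32 and 1.98 FPKM in HYOU1 shRNA libraries 1, 2 and 3. The groups did not overlap, though HYOU1 shRNA replicate 1 came nearest to the controls. It fell by 1.16 ± 0.27 SE (limma, adjusted p = 0.0405). Among the fits that left out a library, only the one without control replicate 1 kept this call (limma, adjusted p elsewhere up to 0.159). ATP1B3, an abundant messenger RNA, fell from 413 ± 45.9 to 181 ± 3.29 FPKM (SD, n = 3 each), by 1.18 (adjusted p = 0.00458). Unspliced ATP1B3 transcripts would give fragments at the same place, and their part in the result was not tested.

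AC023024.1, opposite the end of the proprotein convertase gene PCSK6, was at 4.21, 3.15 and 2.78 FPKM in controls 1, 2 and 3 and 1.12, 0.904 and 1.32 FPKM in HYOU1 shRNA libraries 1, 2 and 3. PCSK6 exons cover 1428 of its 2590 exon bases, the most among these 4 RNAs. It fell by 1.51 ± 0.22 SE (limma, adjusted p = 0.0127), and PCSK6 fell from 9.71 ± 0.862 to 4.39 ± 0.216 FPKM (SD, n = 3 each), by 1.13 (adjusted p = 0.00625). ZNF503-AS2 starts against ZNF503, a zinc finger gene, and was at 2.40, 5.05 and 6.91 FPKM in controls 1, 2 and 3 and 1.25, 1.61 and 1.40 FPKM in HYOU1 shRNA libraries 1, 2 and 3. Control replicate 1 was the lowest control in it and in ZNF503, yet still above every HYOU1 shRNA library. ZNF503-AS2 fell by 1.57 (adjusted p = 0.0434) and ZNF503 by 0.92 (adjusted p = 0.0437), and without control replicate 1 the falls were 1.99 and 1.17. Neither was called in the 5 fits that left out another library (limma, adjusted p up to 0.156 and 0.161), and ZNF503 was not called with the replicate number as a block (adjusted p = 0.0549).

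Other antisense RNAs fell opposite a coding gene that was expressed but did not pass. BASP1-AS1 lies inside BASP1, an abundant gene of a membrane-bound signalling protein, and was at 3.59, 4.39 and 4.91 FPKM in controls 1, 2 and 3 and 1.54, 1.31 and 1.34 FPKM in HYOU1 shRNA libraries 1, 2 and 3. It fell by 1.54 ± 0.17 SE (limma, adjusted p = 0.00611), and BASP1 was at 284 ± 35.99 and 223 ± 12.4 FPKM (SD, n = 3 each) (adjusted p = 0.123). C1RL-AS1, head to head with the complement protease gene C1RL, was at 2.77, 3.35 and 3.24 FPKM in controls 1, 2 and 3 and 1.02, 1.16 and 1.02 FPKM in HYOU1 shRNA libraries 1, 2 and 3. All of its HYOU1 shRNA values were under those of every control, and it fell by 1.46 ± 0.16 SE (limma, adjusted p = 0.00611). C1RL was at 7.78 ± 1.48 and 6.46 ± 0.334 FPKM (SD, n = 3 each) (adjusted p = 0.36).

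ELF3-AS1 runs from the start of ELF3, an epithelial transcription factor gene, to the end of RNPEP, an aminopeptidase gene, on the other strand. It was at 3.94, 4.54 and 4.32 FPKM in controls 1, 2 and 3 and 1.77, 1.76 and 1.47 FPKM in HYOU1 shRNA libraries 1, 2 and 3, with the groups well apart. It fell by 1.31 ± 0.15 SE (limma, adjusted p = 0.00672), while RNPEP differed by 0.22 (adjusted p = 0.199) and ELF3 by 0.32 (adjusted p = 0.339). NRAV, a non-coding RNA studied as a regulator of antiviral genes, lies in the DYNLL1 gene of a dynein light chain with no exon base in common. It was at 11.9, 9.99 and 11.8 FPKM in controls 1, 2 and 3 and 6.91, 7.33 and 6.62 FPKM in HYOU1 shRNA libraries 1, 2 and 3 and fell by 0.68 (limma, adjusted p = 0.0225), with DYNLL1 at 62.2 ± 2.65 and 54.8 ± 1.69 FPKM (SD, n = 3 each) (adjusted p = 0.261). TMPO-AS1, head to head with the lamina protein gene TMPO, fell from 3.08 ± 0.112 to 1.98 ± 0.131 FPKM (SD, n = 3 each), by 0.62 (adjusted p = 0.0357). TMPO differed by -0.29 (adjusted p = 0.386) and was highest in control replicate 1, at 40.3 FPKM against 21.9 to 26.2 FPKM in the other libraries.

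Further antisense RNAs fell opposite a coding gene that was nearly silent. DSCAM-AS1, known from estrogen-responsive breast cancer cells, lies inside the neural adhesion gene DSCAM. DSCAM-AS1 (ENSG00000235123, chromosome 21, 40383083 to 40385358, plus strand) was at 12.2, 13.7 and 13.3 FPKM in controls 1, 2 and 3 and 2.94, 2.89 and 3.59 FPKM in HYOU1 shRNA libraries 1, 2 and 3. The controls differed little among themselves, and so did the HYOU1 shRNA libraries. It fell by 2.03 ± 0.14 SE (limma, adjusted p = 0.00224), with 367 to 455 fragments in the controls and 93 to 111 with HYOU1 shRNA. DSCAM was listed at 0 in every library.

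Among them too, AC091948.1, which spans SPINK9, fell from 7.59 ± 3.07 to 2.38 ± 0.502 FPKM (SD, n = 3 each), by 1.58 (limma, adjusted p = 0.0248). AL354719.2, inside the photoreceptor gene EYS, fell from 3.38 ± 0.263 to 1.13 ± 0.470 FPKM (SD, n = 3 each), by 1.58 (adjusted p = 0.0303). AC010457.1, at the end of EGFLAM, fell from 5.21 ± 0.995 to 2.58 ± 0.296 FPKM (SD, n = 3 each), by 0.97 (adjusted p = 0.0256, and 0.061 after the GC correction). DLGAP1-AS1, inside the postsynaptic scaffold gene DLGAP1, fell from 3.96 ± 0.162 to 2.04 ± 0.305 FPKM (SD, n = 3 each), by 0.93 (adjusted p = 0.0179). The 5 coding genes opposite to these RNAs stayed under 0.4 FPKM in every library.

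The last 2 that fell, AL662791.1 and AL354892.2, overlap no coding gene and are short. AL662791.1 had 20 to 24 fragments in the controls and 12, 6 and 3 in HYOU1 shRNA replicates 1, 2 and 3. It fell by 1.74 ± 0.43 SE (limma, adjusted p = 0.0488), and was lost in each fit that left out a library (adjusted p from 0.0517 to 0.164). AL354892.2 fell from 3.98 ± 0.208 to 1.57 ± 0.250 FPKM (SD, n = 3 each), by 1.29 (adjusted p = 0.00918), with 28 to 29 and 10 to 13 fragments.

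Among the 7 that rose, ZFAS1 was by far the most abundant. ZFAS1 (ENSG00000177410, chromosome 20, 49278178 to 49295738, plus strand) hosts small nucleolar RNAs in its introns and, in GENCODE, starts inside the span of ZNFX1, which is read in the other direction. The promoter stretch printed above comes from a RefSeq start outside that span, so it lies wholly inside the GENCODE gene. ZFAS1 was at 31.9, 23.01 and 24.05 FPKM in controls 1, 2 and 3 and 57.4, 55.96 and 58.6 FPKM in HYOU1 shRNA libraries 1, 2 and 3. The HYOU1 shRNA libraries were within 3 FPKM of each other and above every control, of which replicate 1 was the highest. The log2 fold change was 1.14 ± 0.15 SE (limma, adjusted p = 0.0103). ZNFX1, whose start lies 248 bases away, was at 15.02 ± 0.550 and 15.8 ± 0.361 FPKM (SD, n = 3 each) and did not pass (adjusted p = 0.663).

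HOTAIRM1, known as a non-coding RNA of myeloid cell maturation, was at 6.70, 10.1 and 9.01 FPKM in controls 1, 2 and 3 and 17.8, 16.3 and 17.5 FPKM in HYOU1 shRNA libraries 1, 2 and 3, with every HYOU1 shRNA library above every control. It rose by 1.01 ± 0.17 SE (limma, adjusted p = 0.0181).

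The remaining 5 that rose have clone names. AC115618.2, which overlaps no coding gene, was at 2.21, 2.85 and 2.48 FPKM in controls 1, 2 and 3 and 8.56, 6.77 and 8.26 FPKM in HYOU1 shRNA libraries 1, 2 and 3 and rose by 1.61 ± 0.16 SE (limma, adjusted p = 0.00473), on 17 to 24 fragments in the controls. AL391422.4, head to head with PXDC1, was at 1.57, 3.17 and 3.55 FPKM in controls 1, 2 and 3 and 6.07, 7.53 and 6.31 FPKM in HYOU1 shRNA libraries 1, 2 and 3. Control replicate 1 was the lowest library, and the rise of 1.31 (adjusted p = 0.0412) was 0.96 without it. PXDC1 differed by 0.33 (adjusted p = 0.231).

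AP002387.1, inside DHCR7, the gene of the last enzyme of cholesterol synthesis, rose from 1.89 ± 0.223 to 4.42 ± 0.919 FPKM (SD, n = 3 each), by 1.17 (limma, adjusted p = 0.0191). DHCR7 was at 51.2 ± 9.61 and 64.3 ± 4.47 FPKM (SD, n = 3 each) (adjusted p = 0.211). AC006329.1 rose from 15.5 ± 1.26 to 23.2 ± 2.27 FPKM (SD, n = 3 each), by 0.58 (adjusted p = 0.0352). AC010503.4 lies inside DENND1C, which encodes an exchange factor of Rab GTPases, and was at 2.90, 4.03 and 4.21 FPKM in controls 1, 2 and 3 and 7.39, 6.01 and 6.56 FPKM in HYOU1 shRNA libraries 1, 2 and 3. It rose by 0.84 (adjusted p = 0.0343), and DENND1C rose from 1.53 ± 0.488 to 3.15 ± 0.224 FPKM (SD, n = 3 each), by 1.05 (adjusted p = 0.0478). Of the rises, this was the one whose coding gene also passed. Control replicate 1 was the lowest library for both of its genes.

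By arrangement, 8 of 61 antisense RNAs inside a coding gene changed (2 rose, 6 fell), as did 6 of 48 head to head (2 rose, 4 fell) and 5 of 35 tail to tail (1 rose, 4 fell). Of the 10 that span a coding gene AC091948.1 alone was called, and of the 45 without one 4 were (2 rose, 2 fell). The shares ran from 8.89% to 14.3%, beside the 12.3% of all genes. The medians of the log2 fold change were 0.03 inside, 0.14 head to head, -0.10 tail to tail, -0.27 around and 0.09 without a coding gene, beside 0.04 for all genes. Without control replicate 1 the medians were -0.16, -0.14, -0.23, -0.22 and -0.07. Of the 89 RNAs with no exon base opposite another gene, 9 changed (2 rose, 7 fell), and of the 110 with such bases 15 did (5 rose, 10 fell). These are 10.1% and 13.6%, beside the same 12.3%. No difference between arrangements was tested.

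**Figure D3:**
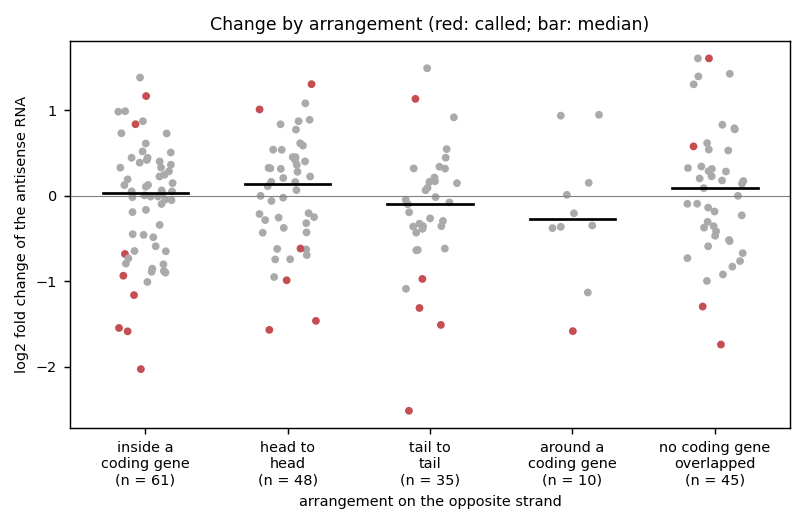
Log2 fold change (HYOU1 shRNA against control, log2(FPKM + 0.1)) of the 199 antisense RNAs by their arrangement with a coding gene on the other strand, 1 point per RNA, red for those called and a bar for the median. The 5 medians lie between -0.27 and 0.14, and called RNAs are found in each arrangement.

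Of the 151 coding genes opposite to members, 122 reached 1 FPKM and were tested, and 19 changed (6 rose, 13 fell), which is 15.6%, against 12.9% of all coding genes tested. Of the 19, limma kept 1, 1 and 0 without HYOU1 shRNA replicates 1, 2 and 3, and 11 when blocked on the replicate number. Among the 24 antisense RNAs that changed, 14 had a tested coding gene. In 6 of these pairs both genes were called, and in all 6 they moved the same way, among them those of ZNF503, PCSK6, ATP1B3, WAC and DENND1C. Of these 5 antisense RNAs, ATP1B3-AS1 alone shares no exon base with its coding gene. Over all 124 pairs tested, the changes had the same sign in 72 and opposite signs in 52. Across these pairs the Pearson correlation of the 2 changes was 0.32 and Spearman's rho 0.26. The Pearson correlation was 0.38 in the 82 pairs with common exon bases and 0.16 in the 42 without. Without control replicate 1 it was 0.43 and 0.07. Spearman's rho was 0.32 and 0.18, and without that library 0.37 and 0.13. The signs were the same in 47 of the 82 pairs and 25 of the 42, and without that library in 54 and 25. No difference between these sets of pairs was tested. The pairs are not independent replicates, both genes of a pair were read from the same libraries, and fragments over common exons could be counted for either.

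**Figure D4:**
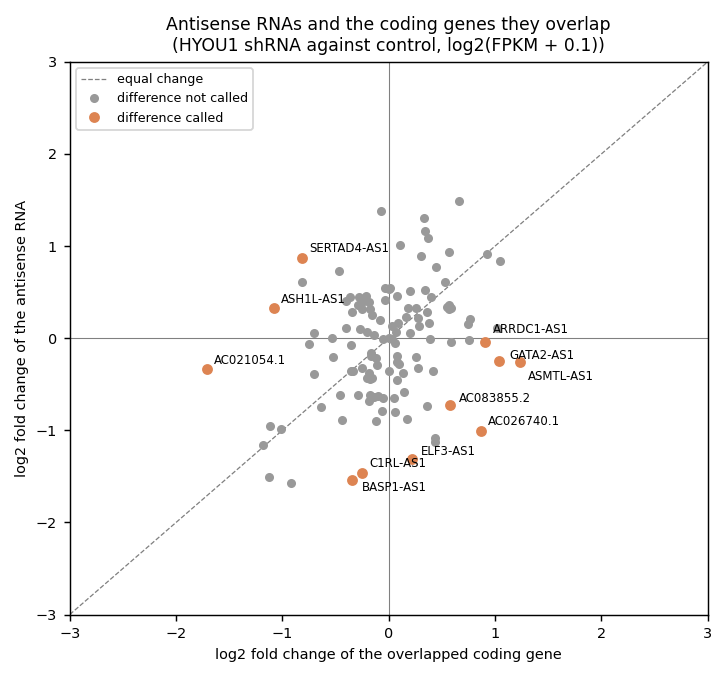
Log2 fold change of each antisense RNA against that of the coding gene it overlaps (all but 1 of the 124 pairs with both genes at 1 FPKM or more), with a dashed line of equal change and in orange 11 of the 12 pairs whose changes differed. Orange points lie away from the line, 8 below it and 3 above it.

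Whether an antisense RNA moved differently from its coding gene was tested on the log2 ratio of the pair in each library. In 12 of the 124 pairs the ratio changed (limma, adjusted p under 0.05 over 283 antisense and coding pairs), which is 9.68%, against 7.77% of all 283. The antisense RNA was relatively lower in 9 and relatively higher in 3, and among all pairs 5.3% were lower and 2.47% higher. All 12 were called without control replicate 1, where 16 member pairs passed, and 11 of them after the GC correction, ASH1L-AS1 being lost (adjusted p = 0.115). Leaving out control replicate 2 or any HYOU1 shRNA replicate ended all 12 calls in limma (adjusted p from 0.0881 to 0.170, with 17 to 23 pairs at an unadjusted p under 0.05). Without control replicate 3 only AC021054.1 against NINJ2 stayed (adjusted p = 0.0473). On all 6 libraries voom called 13 pairs. With the replicate number as a block, with a filter of 0.1 FPKM and with no filter, limma called 0, 0 and 0 (24, 19 and 23 at an unadjusted p under 0.05), and with the GC correction and the block it called 1.

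Among the 12 pairs SERTAD4-AS1 had the largest relative rise and AC026740.1 the largest relative fall. SERTAD4-AS1, head to head with SERTAD4, was at 1.69, 3.14 and 2.28 FPKM in controls 1, 2 and 3 and 4.12, 4.01 and 4.78 FPKM in HYOU1 shRNA libraries 1, 2 and 3, and SERTAD4 at 3.17, 2.47 and 2.27 FPKM in the controls and 1.42, 1.65 and 1.28 FPKM with HYOU1 shRNA. The antisense RNA was above every control in each HYOU1 shRNA library and the coding gene below every control. The ratio rose by 1.69 ± 0.36 SE (limma, adjusted p = 0.0338). ASH1L-AS1 starts against ASH1L, the gene of a histone methyltransferase, and was at 3.78, 3.36 and 2.67 FPKM in controls 1, 2 and 3 and 3.56, 4.14 and 4.63 FPKM in HYOU1 shRNA libraries 1, 2 and 3, with overlapping groups. ASH1L was at 9.85, 6.34 and 5.32 FPKM in the controls and 3.35, 3.23 and 3.09 FPKM with HYOU1 shRNA and fell by 1.08 (adjusted p = 0.0335), and the ratio rose by 1.41 ± 0.25 SE (limma, adjusted p = 0.0229). AC026740.1, inside the tubulin-binding gene TPPP, went the other way, at 2.89, 9.58 and 10.5 FPKM in controls 1, 2 and 3 and 2.68, 3.78 and 3.40 FPKM in HYOU1 shRNA libraries 1, 2 and 3. Control replicate 1 lay among the HYOU1 shRNA libraries. TPPP was at 2.17, 3.85 and 3.96 FPKM in the controls and 5.94, 5.68 and 6.26 FPKM with HYOU1 shRNA, and the ratio fell by 1.88 ± 0.33 SE (limma, adjusted p = 0.0229).

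In the NINJ2 and ASMTL pairs the coding gene was called alone and the antisense RNA was not. NINJ2, which encodes the adhesion protein ninjurin 2, was at 2.40, 2.55 and 1.85 FPKM in the controls and 0.627, 0.585 and 0.642 FPKM with HYOU1 shRNA and fell by 1.71 (limma, adjusted p = 0.00924), while AC021054.1 within it was at 2.46, 2.66 and 2.94 FPKM in the controls and 2.18, 1.80 and 2.33 FPKM with HYOU1 shRNA and did not pass (adjusted p = 0.211). The ratio of the pair rose by 1.37 ± 0.24 SE (limma, adjusted p = 0.0229). ASMTL, a gene related to a methyltransferase of melatonin synthesis, was at 7.72, 13.9 and 15.1 FPKM in the controls and 25.5, 28.7 and 29.3 FPKM with HYOU1 shRNA and rose by 1.24 (adjusted p = 0.0312). ASMTL-AS1 was at 1.36, 2.52 and 3.21 FPKM in the controls and 1.55, 1.71 and 2.35 FPKM with HYOU1 shRNA, with overlapping groups, and the ratio fell by 1.5 ± 0.24 SE (limma, adjusted p = 0.0229). These 2 genes lie in the part of chromosome X that chromosome Y also carries, and how fragments were split between the copies was not given in the sources used here.

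Towards a lower ratio with HYOU1 shRNA went AC083855.2 and GATA2-AS1 as well. AC083855.2 was at 5.01 ± 0.813 and 2.998 ± 0.674 FPKM (SD, n = 3 each) and the histamine receptor gene HRH1, within which it lies, at 2.18 ± 0.274 and 3.30 ± 0.197 FPKM (SD, n = 3 each), neither of them called alone (adjusted p = 0.0709 and 0.0558). Their ratio fell by 1.31 ± 0.26 SE (limma, adjusted p = 0.0294). GATA2-AS1 and the transcription factor gene GATA2 start against each other with no exon base in common. GATA2-AS1 was at 5.34, 8.42 and 8.35 FPKM in the controls and 6.85, 5.56 and 5.83 FPKM with HYOU1 shRNA, and GATA2 at 5.15, 9.56 and 11.1 FPKM in the controls and 17.1, 16.1 and 17.4 FPKM with HYOU1 shRNA. The ratio fell by 1.28 ± 0.24 SE (limma, adjusted p = 0.0229), although neither gene passed alone. ARRDC1-AS1 against ARRDC1, a gene of an arrestin-related adaptor, fell by 0.95 in the ratio (limma, adjusted p = 0.0338), with ARRDC1 at 13.9 ± 5.13 and 24.7 ± 1.42 FPKM (SD, n = 3 each) (adjusted p = 0.0935). The rule for naming pairs did not reach GATA2-AS1, which was chosen after its value was seen.

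The end of the ARRDC1 pair is shown because both genes stop within it. Their last 29 bases coincide at chr9:137615332-137615360 on GRCh38, given here on the minus strand of ARRDC1-AS1, and capitals mark AATAAA, the usual polyadenylation signal, on either strand.
ARRDC1-AS1: tctacaAATAAAgtgtTTTATTtacagga
The stretch holds 1 AATAAA for each gene. Of the last 29 bases of 206694 GENCODE transcripts, 20.7% held AATAAA and 0.653% held it on both strands.

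ELF3-AS1, C1RL-AS1 and BASP1-AS1, which fell as described, also belonged to the 12 pairs. Their ratios to RNPEP, C1RL and BASP1 fell by 1.53, 1.21 and 1.20 (limma, adjusted p = 0.0229, 0.0229 and 0.0264), and none of these 3 coding genes was called alone.

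**Figure D5:**
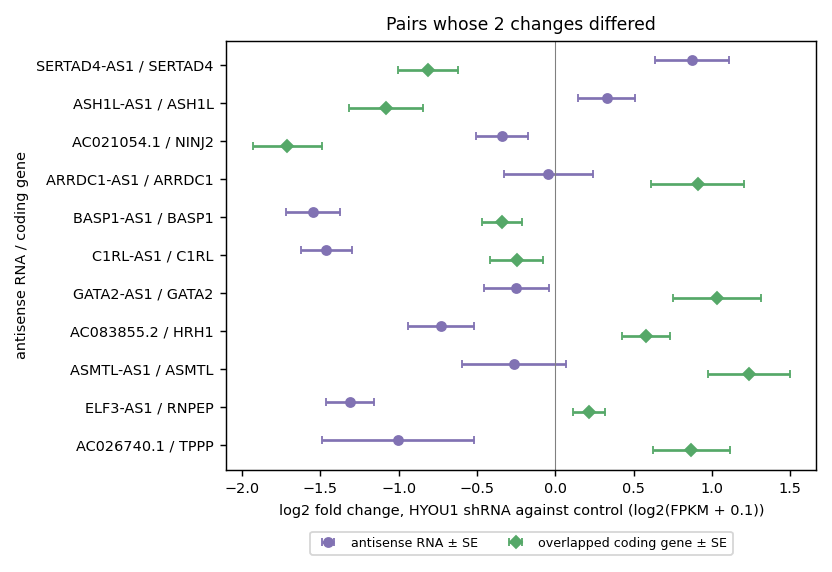
Log2 fold change with its standard error (HYOU1 shRNA against control, log2(FPKM + 0.1), n = 3 libraries each) of the antisense RNA (purple circle) and of the coding gene (green diamond) in 11 of the 12 pairs whose ratio changed. In the upper 3 rows the antisense RNA lies to the right of the coding gene, and in the lower 8 to its left.

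A start within 1000 bases of that of a coding gene on the other strand was found for 79 members, a distance chosen after the data were seen. For 71 of them the coding neighbour was tested, and 2 of these neighbours rose and 7 fell, 12.7% of the 71 beside 12.9% of all coding genes. Of these 9 calls limma kept 0, 0 and 0 without HYOU1 shRNA replicates 1, 2 and 3 and 9, 1 and 4 without control replicates 1, 2 and 3, and voom kept 9. In all, limma called 37 of the 71 neighbours when control replicate 1 was left out, and 34 once GC content was corrected for. Of all genes, 44.3% and 40.6% were called in those fits. The changes of antisense RNA and neighbour had the same sign in 44 of the 71. Of the 79 members 8 changed (3 rose, 5 fell), which is 10.1%, against 12.3% of all genes. Besides WAC, ZNF503 was a neighbour that fell with its antisense RNA.

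The machinery that degrades such RNAs was looked at through lists chosen for it. None of 25 genes of the nuclear exosome and its adaptors was called in limma, where 3 had an unadjusted p under 0.05 and voom called 0, with a median log2 fold change of 0.07. Without control replicate 1 limma called 8 of the 25 (6 rose, 2 fell), in a fit that called 44.3% of all genes. Among these 8 were NCBP1, which encodes a subunit of the nuclear cap-binding complex (-0.49, limma, adjusted p = 0.00182), and DIS3, a catalytic exosome subunit (0.46, limma, adjusted p = 0.0101). Once GC content was corrected for, 4 of the list rose and 2 fell, while 40.6% of all genes were called. NCBP1 and DIS3 were picked after their values were seen. The most abundant were XRN2, a nuclear exonuclease, at 29.9 ± 2.72 and 32.8 ± 2.71 FPKM (SD, n = 3 each), and EXOSC2, an exosome subunit, at 29.6 ± 2.13 and 30.3 ± 0.0976 FPKM (SD, n = 3 each). Of 14 genes of Integrator, a complex that cleaves nascent RNA, 2 fell and 12 did not pass (14.3% called, against 12.3% of all genes). In the fit that left out control replicate 1 there were 2 higher and 5 lower Integrator genes, and 2 higher and 7 lower ones once GC content was corrected for. There too, 44.3% and 40.6% of all genes were called. INTS3 fell from 13.4 ± 0.966 to 8.85 ± 0.222 FPKM (SD, n = 3 each), by 0.60, and INTS9 by 0.59 (limma, adjusted p = 0.0246 and 0.0309). Both were called in only 1 of the 6 fits that leave out a library, the one without control replicate 1 (adjusted p = 0.00023 and 0.00194), and elsewhere reached an adjusted p of 0.131 and 0.148. Of 11 genes of nonsense-mediated decay, which degrades many spliced non-coding RNAs, none was called in limma, 2 had an unadjusted p under 0.05 and voom called 0. Without control replicate 1, and likewise after the GC correction, 1 rose and 1 fell, UPF3B and XRN1 (limma, adjusted p = 0.00761 and 0.0190 without that library). These fits called 44.3% and 40.6% of all genes. UPF1, its central helicase, was at 20.2 ± 5.64 and 26.04 ± 1.47 FPKM (SD, n = 3 each) and SMG5 at 18.97 ± 3.51 and 20.1 ± 1.11 FPKM (SD, n = 3 each).

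A list of 40 antisense and other long non-coding RNAs with published functions held 18 tested genes, 10 of them among the 199. In it 3 rose, 2 fell and 13 did not pass, with a median log2 fold change of -0.15. The share called was 27.8%, against 12.3% of all genes. Leaving out control replicate 1 gave 7 rises and 5 falls in the list, while 44.3% of all genes were called. With the GC correction the list had 6 rises and 5 falls, beside 40.6% of all genes. Besides ZFAS1, HOTAIRM1, WAC-AS1 and TMPO-AS1, the gene that changed was FOXD2-AS1, classed apart from the antisense genes, which rose from 2.84 ± 0.544 to 6.45 ± 0.225 FPKM (SD, n = 3 each), by 1.17 (limma, adjusted p = 0.0126). It did not pass without any 1 of the HYOU1 shRNA libraries (limma, adjusted p up to 0.0841). OIP5-AS1, TUG1 and PVT1, which are widely studied, did not pass (adjusted p = 0.364, 0.101 and 0.122) and were picked once their values were known. Since results of these data were known when the list was drawn up, its counts are a description.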

How the data were processed

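Gene expression was measured by RNA sequencing in 6 libraries, 3 per group. The authors deposited 1 table of FPKM for 58735 genes, with gene lengths and classes in its columns per the file headers. The aligner, the counter and the use of strand were not given in the sources used here. Each of the 58735 genes matched GENCODE release 29 (Ensembl 94, GRCh38) in identifier, coordinates, strand and exon length, and exons and arrangements were taken from it. FPKM times gene length came out as whole fragments (within 0.01) for 100% of values under 2000 fragments in each library, which gave the totals. Those precision limits cover counting error only.

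On the log2(FPKM + 0.1) scale, the 12448 genes whose mean reached 1 FPKM were fitted with limma 3.58.1 in R 4.3.3 (eBayes with variance trend and robust priors) and called where the p adjusted after Benjamini-Hochberg was under 0.05. Adjusted p-values of genes come from this fit where no other is named. The ratio of a pair was fitted likewise over 283 pairs. Fold changes on this scale understate those of weak genes. The GC correction removed, per library, a lowess trend (span 0.3) on GC content (longest transcript), and with it any real difference that follows GC content. For 6 genes no GC value was found and the values were left as they were.

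The members and all lists were chosen with earlier results of these data known. Named are the called members without overlap between the groups, the 6 with the highest mean, up to 8 called pairs by size, 3 genes on each side of the threshold, the coding genes of all these (some genes, 1 pair and 1 sequence are not reported here), and up to 4 called genes per list or, with none called, the 2 with the highest mean. The alternatives comprised 2 other pseudocounts (1 and 0.01), filters at 0.1 FPKM, 2 FPKM and none, TPM and quantile scaling, a block for the replicate number, an untrended variance, the GC correction, voom on fragments, leaving out each library, and another choice of coding gene or of exon overlap.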

Additional observations from a re-analysis of the deposited data

How the results depend on the processing

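The count of antisense RNAs called (24) was 12 to 26 with other pseudocounts, filters, scalings, variance models, the replicate block (22) or voom, and the lowest, 12, came with no filter on low values. It was 76 with the GC correction, 68 with it and the replicate block, and 1 to 81 when a library was left out. In the smaller set of 89 RNAs that share no exon base with a gene on the other strand, 9 were called, which is 10.1%. Of the overlapped coding genes (19 called), 53 passed with the GC correction, 50 with it and the block, and 11 with the replicate block alone. In the smaller set sharing no exon base 4 passed. With a filter of 0.1 FPKM 12 passed, with no filter 8, and 0 to 64 when a library was left out. The 0 came without HYOU1 shRNA replicate 3, where limma gave 23 an unadjusted p under 0.05. The ratio changed in 12 of all 124 pairs, and in 3 of the 42 pairs without common exons. Over all pairs of members the count was 1 with the GC correction and the block and 0 to 16 when a library was left out. It was 0 with the replicate block, 0 with a filter of 0.1 FPKM and 0 with no filter. At an unadjusted p under 0.05 limma gave 24, 19 and 23 pairs in those 3 fits, and voom called 13. With the coding gene of the highest mean in place of the longest overlap 13 pairs passed. More low genes are tested with a lower filter, and fewer libraries enter when 1 is left out. Yet without control replicate 1 the counts were higher, at 81 antisense RNAs, 64 coding genes and 16 pairs. Why the counts differed between settings was not tested. HYOU1 kept its direction and call in every setting run. Nothing changed sign while called. Samples with the same replicate number deviated together with correlations of 0.12, -0.09 and 0.17 over genes, so the numbers were not used as pairs. The antisense RNAs had a median of 66.5 fragments per library, and what size of change this depth could show was not tested.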
